A study of Mus musculus with 6 samples.

Results

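The genes described here are 7 components of efferocytosis, the engulfment of dying cells by phagocytes. They are the receptors Mertk, Axl, Tyro3 and Lrp1 and the bridging ligands Gas6, Pros1 and Mfge8. They were read by symbol from a table of 24054 genes. All 7 were present, and 6 of them had enough reads to be tested among 11400 genes. RNA came from mouse bone marrow-derived macrophages, grown from wild-type C57BL/6 marrow for 7 days in medium conditioned by L929 cells, a fibroblast line that secretes the macrophage growth factor CSF1. The 3 oxLDL samples were exposed for 24 hours to oxidised low-density lipoprotein at 50 µg/ml, a modified lipoprotein that macrophages take up in atherosclerotic plaques. The 3 untreated samples were cultured without it. Both groups carry the numbers 1, 2 and 3, and every title includes a tag, mix, whose meaning is not given. The age and sex of the mice, and whether a number marks an animal or a pool, are not given in the sources used here.

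Dying cells expose phosphatidylserine on their surface. Mertk, Axl and Tyro3 form the TAM family of receptor tyrosine kinases, and they recognise that lipid through the bridging proteins Gas6 and protein S, the product of Pros1. Both ligands bind the lipid through a domain that needs vitamin K dependent carboxylation. Mfge8 bridges the lipid to the integrins αvβ3 and αvβ5, and Lrp1 is a large endocytic receptor that binds calreticulin on dying cells besides many soluble ligands. Mertk is the TAM receptor most closely tied to the clearance of dying cells by macrophages, and its loss enlarges plaque necrosis in mice.

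Each library held between 13546572 and 15559310 expected counts. The libraries numbered 3 stood apart: in log2 CPM (read counts relative to the TMM-scaled library total) oxLDL sample 3 correlated across genes with oxLDL samples 1 and 2 at 0.908 and 0.922, whereas those 2 correlated at 0.983. Untreated sample 3 correlated with untreated samples 1 and 2 at 0.889 and 0.897, and those 2 with each other at 0.984. The oxLDL and untreated samples of the same number correlated at 0.929, 0.903 and 0.964 for numbers 1, 2 and 3. Xist, the RNA of the inactive X chromosome, measured 966, 346 and 0.0724 CPM in oxLDL samples 1, 2 and 3, against 957, 505 and 0.341 CPM in the untreated samples. The Y-linked genes Ddx3y, Eif2s3y, Kdm5d and Uty together measured 59.1, 220.5 and 265 CPM in oxLDL samples, against 64.6, 228 and 230 CPM in untreated samples, so libraries 1 and 2 of both groups held reads of both kinds. Of the macrophage markers 10 of 10 were found, with a summed level of 9363 to 16830 CPM in oxLDL samples, against 12950 to 36200 CPM in untreated samples. Lyz2 was the largest part of every sum, and Cd163 lay at 0.0724 and 0.0683 CPM in oxLDL and untreated sample 3. The markers did not move together. Emr1 measured 1352, 451 and 2499 CPM with oxLDL, against 9153, 6570 and 3088 CPM without it. Cd68 measured 1613, 1643 and 1328 CPM with oxLDL, against 740, 1096 and 1195 CPM. Markers of T, B, NK, mast, stromal, erythroid and megakaryocyte cells each summed to 2.12 CPM or less in every library. Granulocyte markers (6 of 7 found) summed to 1.27 to 4.78 CPM with oxLDL, against 7.03 to 30.5 CPM without it, and dendritic markers (6 of 6) to 3.56 to 15.4 CPM, against 4.41 to 8.89 CPM. Osteoclast markers (3 of 3) summed to 4.71 to 14.1 CPM with oxLDL, against 1.09 to 11.1 CPM, nearly all from Ctsk. The endothelial pair summed to 20.3 to 32.7 CPM with oxLDL, against 22.3 to 71.1 CPM, nearly all from Kdr, while Cdh5 did not exceed 0.43 CPM. The part of these differences in the results below was not tested.

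The promoters of Pros1, Axl, Lrp1 and Mfge8 are shown because Pros1, Axl and Lrp1 were lower with oxLDL in 3 of 3 numbered pairs, while Mfge8 had the highest fitted difference of the members. Lrp1 was nearly level in pair 3 (log2 ratio -0.03). The share of all tested genes lower in 3 of 3 pairs is not given here, and 48.6% had a fitted value below 0. Each is 300 bases, from 250 before to 50 after the gene's start, from RefSeq on GRCm38.p6. Pros1 lies on the plus strand of chr16:62854057-62854356. Axl lies on the minus strand of chr7:25788684-25788983, Lrp1 on the minus strand of chr10:127621099-127621398 and Mfge8 on the minus strand of chr7:79149011-79149310. Capitals mark matches, on either strand, to the SP1 box GGGCGG, the PU.1 core GAGGAA or the antioxidant response core TGACNNNGC. The other motifs searched had no match in these 4: the nuclear receptor half-site AGGTCA, the AP-1 site TGANTCA and the E-box CACGTG.
Pros1: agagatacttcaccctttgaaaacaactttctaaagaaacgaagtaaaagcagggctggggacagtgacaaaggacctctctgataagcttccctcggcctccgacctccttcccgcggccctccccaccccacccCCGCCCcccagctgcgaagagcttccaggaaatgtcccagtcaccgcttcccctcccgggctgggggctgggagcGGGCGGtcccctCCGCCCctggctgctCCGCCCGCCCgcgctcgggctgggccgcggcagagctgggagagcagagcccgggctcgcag
Axl: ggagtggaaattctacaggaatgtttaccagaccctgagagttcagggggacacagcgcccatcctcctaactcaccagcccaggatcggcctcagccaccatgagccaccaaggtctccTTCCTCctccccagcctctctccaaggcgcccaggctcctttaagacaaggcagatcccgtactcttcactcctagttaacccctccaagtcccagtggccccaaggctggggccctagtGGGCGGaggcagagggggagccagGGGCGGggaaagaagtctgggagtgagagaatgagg
Lrp1: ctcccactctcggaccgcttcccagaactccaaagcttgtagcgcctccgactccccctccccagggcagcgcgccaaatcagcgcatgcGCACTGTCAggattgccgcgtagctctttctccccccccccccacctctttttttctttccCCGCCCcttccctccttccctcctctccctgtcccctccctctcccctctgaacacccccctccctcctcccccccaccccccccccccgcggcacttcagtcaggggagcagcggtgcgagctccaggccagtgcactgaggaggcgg
Mfge8: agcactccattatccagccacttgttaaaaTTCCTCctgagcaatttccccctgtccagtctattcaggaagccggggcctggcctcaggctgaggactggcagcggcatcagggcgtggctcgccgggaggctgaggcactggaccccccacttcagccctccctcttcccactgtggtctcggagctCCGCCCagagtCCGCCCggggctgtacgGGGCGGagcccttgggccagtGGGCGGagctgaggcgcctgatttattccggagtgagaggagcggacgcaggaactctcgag

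GGGCGG occurred in the promoters of all 7 genes, from 1 match in Lrp1 to 6 in Tyro3, and in 35.7% of 32851 promoters of the same length. Matches to it overlapped each other in Pros1 and in Tyro3. The 7 windows held 58.3% (Gas6) to 73.3% (Tyro3) G and C bases, against a median of 52.7% over all promoters. GAGGAA was present in Axl and Mfge8, and in 28.3% of all promoters. TGACNNNGC was present in Lrp1 alone of the 7, and in 12.4% of all promoters. The nuclear receptor half-site was in none of the 7 and in 16.3% of all promoters, the AP-1 site in none and in 7.81%, and the E-box in none and in 7.15%. A match is a description of letters and not a bound site.

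The levels of the 7 genes spanned a wide range, seen in the plot of length-scaled levels. Per kilobase of the longest protein-coding transcript in GENCODE M21, Gas6 averaged 161 ± 127 CPM with oxLDL and 116 ± 79.4 CPM without it (SD, n = 3 each). Lrp1 averaged 61.1 ± 18.9 CPM per kilobase with oxLDL and 107 ± 57.2 in untreated cells. Mfge8 followed with 49.5 ± 21.1 and 22.2 ± 10.6 CPM per kilobase in oxLDL and untreated samples, and Pros1 with 12.2 ± 9.07 and 28.2 ± 21.9. Mertk averaged 7.91 ± 5.48 CPM per kilobase with oxLDL and 11.6 ± 7.74 without it, and Axl 6.18 ± 2.37 and 11.1 ± 3.68. Tyro3 stayed below 0.1 CPM per kilobase in every library. In oxLDL samples Gas6 and Lrp1, Lrp1 and Mfge8, Pros1 and Mertk, and Mertk and Axl overlapped as neighbours, while Mfge8 lay above Pros1 in all 3. In untreated samples Pros1 averaged above Mfge8 and overlapped it, Lrp1 lay above Mfge8 in all 3, and the other neighbours overlapped too, except Tyro3. The transcript lengths behind the authors' counts were not given in the sources used here, so these levels rest on another annotation.

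**Figure D1:**
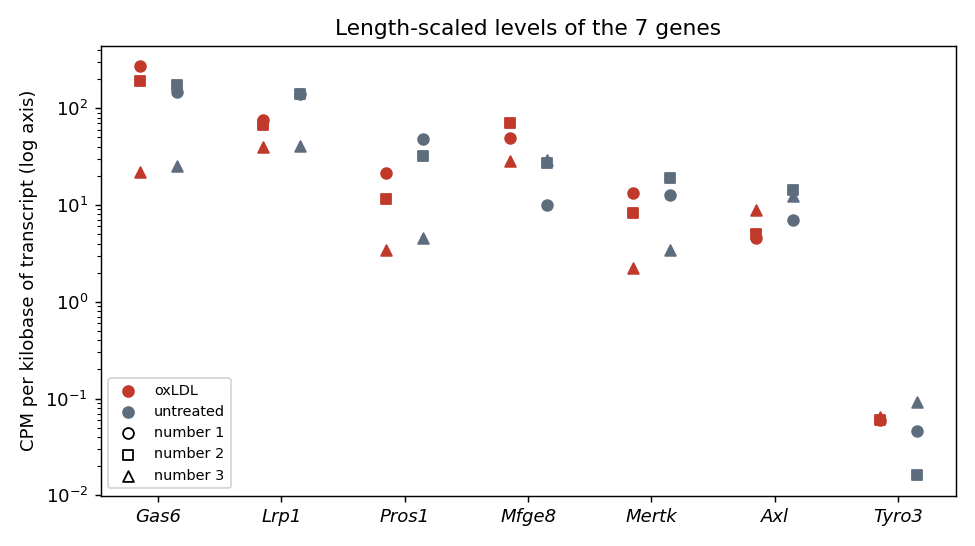
Level of each gene in CPM per kilobase of its longest GENCODE M21 protein-coding transcript (log axis), one point per library, oxLDL left and untreated right, with marker shape giving the sample number. Gas6 and Lrp1 have the highest means, the triangles of number 3 lie low for Gas6, Pros1 and Mertk, and Tyro3 lies below 0.1 in all 6 libraries.

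The comparison of oxLDL-treated with untreated macrophages asked which of these genes differ after exposure to the modified lipoprotein. No member passed an adjusted p of 0.05 in edgeR's quasi-likelihood test with the sample number as a block: 0 of 6 were called, against 5.89% of all tested genes (1.91% higher and 3.98% lower with oxLDL). At an unadjusted p of 0.05, 2 of 6 passed, Axl and Pros1, both lower with oxLDL, against 29.0% of all tested genes in either direction and 15.7% lower. Without the block 0 of 6 members and 0 of 11400 genes passed in edgeR, while 0 members and 1674 genes had an unadjusted p under 0.05, and DESeq2 called 819 genes and 0 members. In none of the 6 did the groups separate without overlap, which happened in 10.5% of tested genes with oxLDL higher and in 10.6% with oxLDL lower. DESeq2 with the block called 1 member higher (5.63% of its genes) and 2 lower (9.42%), and limma-voom with the block called 1 lower (5.67%). Members that did not pass are given by their values, and a missed threshold does not show that a level was the same in both groups.

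**Figure D2:**
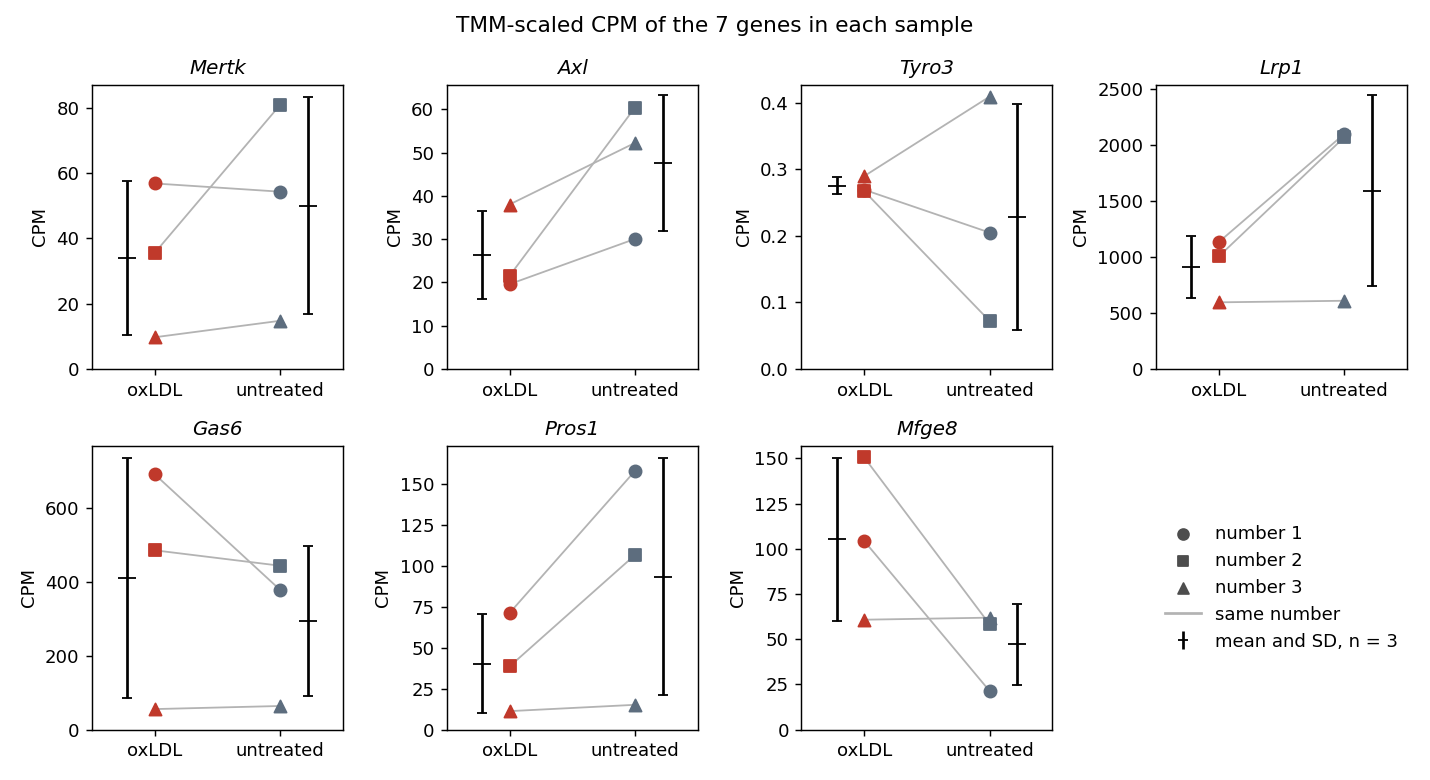
TMM-scaled CPM of each gene in every library, oxLDL left and untreated right, with grey lines joining samples of the same number and black bars giving mean and SD of 3 samples. Axl, Pros1 and Lrp1 lines are lower on the oxLDL side for all 3 numbers, although the Lrp1 line of number 3 is nearly flat, at 595 and 608 CPM.

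Among the TAM receptors, Mertk measured 56.8, 35.6 and 9.70 CPM in oxLDL samples 1, 2 and 3, against 54.3, 80.9 and 14.7 CPM in the untreated samples. The number 3 samples were the lowest of both groups, and the oxLDL value lay below its untreated partner in 2 of 3 pairs. The log2 ratios of the pairs were 0.07, -1.18 and -0.60, and the fitted log2 fold change was -0.57 ± 0.26 (SE; edgeR adjusted p = 0.232). None of the alternatives tried, with or without a library, brought Mertk past the threshold (adjusted p 0.21 to 0.996).

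Axl, the TAM receptor that is induced by interferon in macrophages and dendritic cells, measured 19.6, 21.5 and 38.0 CPM with oxLDL, against 30.03, 60.4 and 52.2 CPM without it. Each oxLDL sample was below its untreated partner, but oxLDL sample 3 was above untreated sample 1, so the groups overlapped. The log2 fold change was -0.85 ± 0.23 (SE; edgeR adjusted p = 0.0970), with pair ratios of -0.61, -1.48 and -0.46. Axl passed in DESeq2 with the block (adjusted p = 0.0225) and in edgeR without pair 3 (-1.07, adjusted p = 0.0356). That last fit called 14.0% of its genes higher and 15.8% lower, and it has 4 libraries.

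Tyro3, the TAM receptor best known from the nervous system, was close to undetected. Its expected counts were 4, 4 and 4 in oxLDL samples 1, 2 and 3, against 3, 1 and 5.99 in untreated samples. It was below the count filter and was not tested, and 3 counts correspond to 0.217 CPM in the smallest library after TMM scaling. Small differences between the groups are not detectable at counts this low. In the fits that kept Tyro3, edgeR without the count filter and DESeq2 without the block, 0 of 7 members passed.

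Mertk and Axl transcripts have nearly the same length, 4302 and 4265 bases, so their counts can be set against each other within a library. The Axl to Mertk ratio was 0.345, 0.604 and 3.92 in oxLDL samples 1, 2 and 3, against 0.553, 0.746 and 3.54 in untreated samples. Axl reads were the more numerous of the 2 in both libraries numbered 3 and the less numerous in the other 4, whether or not oxLDL had been added.

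Lrp1 measured 1132, 1004 and 595 CPM in oxLDL samples 1, 2 and 3, against 2098, 2068 and 608 CPM in untreated samples. Pairs 1 and 2 each differed by about the same amount (log2 ratios -0.89 and -1.04), and pair 3 hardly differed (-0.03). The log2 fold change was -0.66 ± 0.27 (SE; edgeR adjusted p = 0.188). Without pair 3 it was -0.97 and passed (edgeR adjusted p = 0.0109). In that fit of 4 libraries the call rests on pairs 1 and 2 alone.

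Of the bridging ligands, Pros1 had the smallest p-value of the members. It measured 71.1, 38.5 and 11.3 CPM with oxLDL, against 158, 107 and 15.2 CPM in untreated cells. Every oxLDL sample was below its partner, while the spread between numbers was wider than the difference within a pair. The log2 fold change was -1.04 ± 0.22 (SE; edgeR adjusted p = 0.0675), and pair ratios were -1.15, -1.46 and -0.42. It passed in limma-voom (adjusted p = 0.0450) and in DESeq2 (adjusted p = 0.00186), both with the block, and in edgeR without pair 3 (-1.31, adjusted p = 0.00256). Without the block its SE widened to 0.96 (edgeR adjusted p = 0.604).

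Gas6, the ligand of all the TAM receptors, measured 689, 484 and 55.6 CPM in oxLDL samples 1, 2 and 3, against 377, 443 and 64.0 CPM in untreated samples. The oxLDL value was higher than its partner in pairs 1 and 2 and lower in pair 3, and the libraries numbered 3 were far below the rest. The log2 fold change was 0.27 ± 0.24 (SE; edgeR adjusted p = 0.511). Its sign turned without pair 1 (-0.04, edgeR adjusted p = 0.950) and, in fits with no block, without oxLDL sample 1 (-0.13) or untreated sample 3 (-0.0024). The ratio of Gas6 to Pros1 counts was 9.70, 12.6 and 4.92 in oxLDL samples, against 2.39, 4.16 and 4.22 in untreated samples. All 3 oxLDL ratios lay above all 3 untreated ratios, the nearest being 4.92 and 4.22. The other ratios computed between members overlapped between the groups. Gas6 to Mertk was 5.73 in oxLDL sample 3, against 6.95 in untreated sample 1. Mfge8 to Pros1 was 1.47 in oxLDL sample 1, against 4.09 in untreated sample 3. The Gas6 to Pros1 ratio was picked after the values were seen and was not tested.

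Mfge8, the ligand of the integrin arm, measured 104, 151 and 60.8 CPM with oxLDL, against 21.4, 58.2 and 61.9 CPM without it. It was higher in pairs 1 and 2, with log2 ratios of 2.28 and 1.37, and level in pair 3 (-0.03). The log2 fold change was 1.21 ± 0.47 (SE; edgeR adjusted p = 0.178), the highest fitted value of the members. It passed in DESeq2 with the block (adjusted p = 0.0288) and in edgeR without pair 3 (1.81, adjusted p = 0.0123). Without pair 1 the value was 0.67 (edgeR adjusted p = 0.542).

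**Figure D3:**
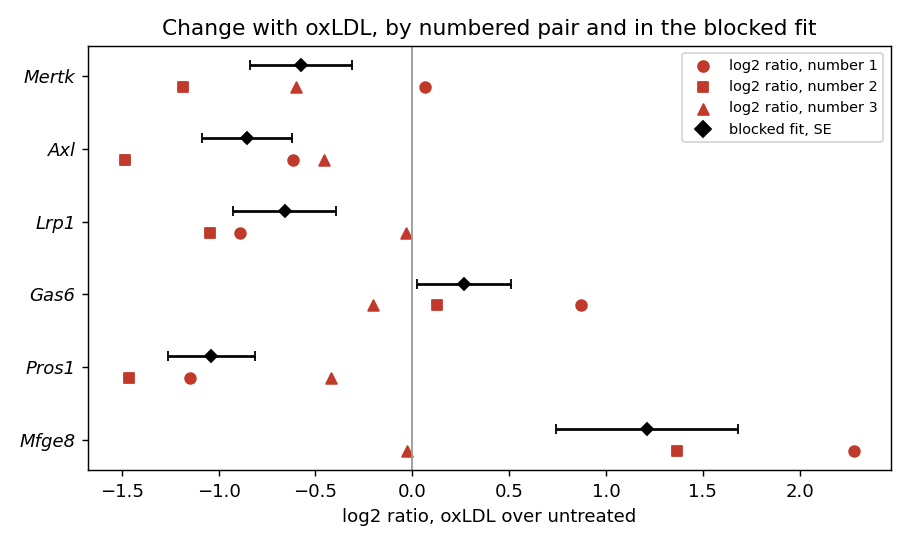
Log2 ratio of oxLDL over untreated for the 6 tested genes (Tyro3 was below the count filter). Red symbols are the ratios of the numbered pairs and black diamonds the blocked edgeR estimates with SE. Pros1, Axl and Lrp1 have all 3 pairs below 0, and the triangles of pair 3 lie nearest to 0 for Lrp1, Pros1, Axl and Mfge8. The 2 samples of pair 3 were also the most alike over all tested genes (r = 0.964, against 0.929 and 0.903 for pairs 1 and 2).

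Sample number separated several members more widely than oxLDL did. In oxLDL samples the mean of numbers 1 and 2 exceeded number 3 by 10.6-fold for Gas6, 4.86-fold for Pros1 and 4.76-fold for Mertk, and in untreated samples by 6.41-fold, 8.72-fold and 4.58-fold. Number 3 was thus more than 2-fold lower in both groups for 3 of the 6 tested members, against 6.79% of all tested genes. For Lrp1 the same fold was 1.80 with oxLDL and 3.42 without it. Axl went the other way, with 0.541 and 0.866 in oxLDL and untreated samples. Mfge8 was 2.096-fold higher in numbers 1 and 2 with oxLDL, but stood at 0.643 in untreated samples. Of the 10 macrophage markers, number 3 was the lowest library in both groups for 3 (Mrc1, Lyz2 and Cd163) and the highest in both for 1 (Fcgr1). It was the lowest for 5 and the highest for 3 in oxLDL samples, and the lowest for 7 and the highest for 2 in untreated samples. The numbers were compared after their values were seen, so these folds are a description. The part of the macrophage markers and of the Xist and Y-linked levels in them was not tested.

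Genes whose log2 CPM followed a member most closely were sought among 8634 others whose log2 CPM averaged 3 or more. Over the 6 samples the closest to Mertk was Gng2 (Pearson r = 0.999), followed by Mbd4 and Pcp4l1. Lrp1 was nearest to Htt (0.9995), Epb4.1l1 and Rbfa, Gas6 to Sptbn1 (0.998), Mbp and Ccdc32, and Pros1 to Arhgef6 (0.998), Kctd10 and Stk4. Values this high were common: 713 genes exceeded 0.9 for Mertk, 933 for Lrp1, 488 for Gas6 and 940 for Pros1. Axl and Mfge8 had fewer companions, 67 and 124 genes above 0.9, and the closest were Gm13157 (0.987), Gm13251 and Gm17644 for Axl and Nabp1 (0.988), Nkain1 and Nemf for Mfge8. These likenesses are over 6 samples that share numbers and are given with no test.

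Genes that work with the members were read from the same blocked fit in 12 lists, shown in the plot of related lists. Beside each count stands the median log2 fold change, which over all tested genes was 0.01, and the counts are to be read against 1.91% of all tested genes called higher, 3.98% called lower and 48.6% with a fitted value below 0. Groups without overlap are to be read against 10.5% of all tested genes with oxLDL higher and 10.6% with oxLDL lower. The 16 genes called below all missed the threshold in edgeR without the block, and with the block no gene of the table passed without pair 1 or without pair 2.

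Other receptors for phosphatidylserine had 1 of 9 tested members higher, 2 lower and 6 not past the threshold (median -0.08). Cd300a, an inhibitory receptor that binds the lipid, rose by 0.93 ± 0.13 on the log2 scale (SE; edgeR adjusted p = 0.0369), at 386 ± 161 CPM with oxLDL and 203 ± 89.1 CPM without it. Cd300ld fell by 1.42 and Scarf1, a scavenger receptor that binds C1q on dying cells, fell by 1.49 on that scale. Scarf1 measured 10.5, 9.48 and 7.60 CPM with oxLDL, against 25.6, 34.0 and 19.1 CPM in untreated samples, with no overlap. Both CD300 genes had fractional counts in 6 samples, meaning that RSEM divided some reads between them and other genes. Timd4, Havcr1, Bai1, Ager and Megf10, listed with them, were below the count filter.

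The integrin chains that bind Mfge8 had 0 of 3 past the threshold (median -0.31). Itgb3, the β3 chain, measured 96.3, 153 and 35.2 CPM with oxLDL, against 2.28, 3.60 and 9.01 CPM without it, and the difference of 4.23 ± 0.87 on the log2 scale missed the threshold (SE; edgeR adjusted p = 0.0629), though it passed in 5 of 15 alternatives. The groups did not overlap. Its partner Itgav measured 121 ± 27.3 CPM with oxLDL and 148 ± 10.1 CPM without it (-0.31 ± 0.14), and Itgb5 77.1 ± 29.3 and 104 ± 32.7 CPM in oxLDL and untreated samples (-0.47 ± 0.13). Itgb3 and Itgb5 were described after their values were seen.

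**Figure D4:**
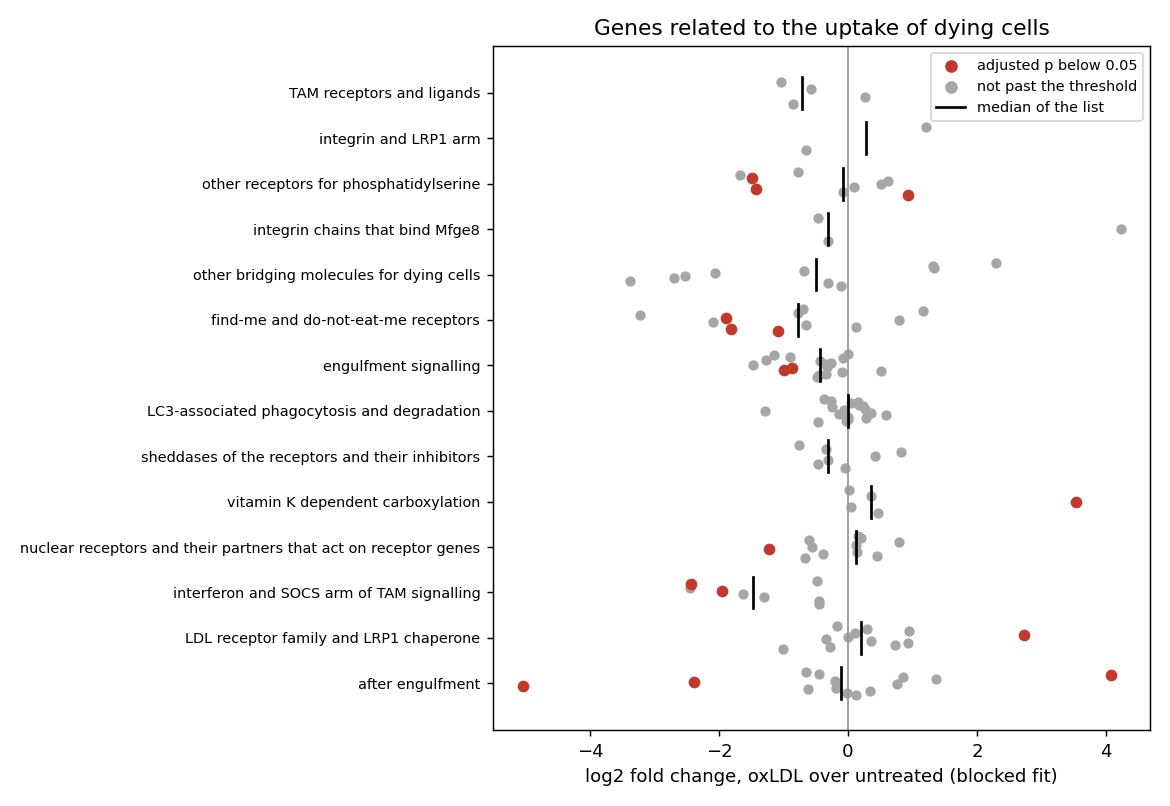
Log2 fold change of oxLDL over untreated in the blocked fit for every tested gene of the lists, one row per list, members included in the top 2 rows. Red points passed an adjusted p of 0.05, grey points did not, and black bars are list medians; most points are grey, and the red ones lie on both sides of 0.

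Of 10 other bridging molecules none passed (median -0.49). Lgals3, galectin-3, the most abundant of them, measured 2839, 3805 and 2336 CPM with oxLDL, against 697, 1446 and 1622 CPM in untreated samples. The groups did not overlap, and the difference of 1.32 ± 0.35 on the log2 scale missed the threshold (SE; edgeR adjusted p = 0.0882). The complement C1q chains C1qa, C1qb and C1qc lay lower with oxLDL, at -3.38, -2.69 and -2.53 on the log2 scale, without overlap and also short of the threshold (edgeR adjusted p = 0.0766, 0.0547 and 0.0605). Thbs1 lay higher (2.30, edgeR adjusted p = 0.0726) and C4b lower (-2.06, edgeR adjusted p = 0.155), both also without overlap. C4b counts were not whole in 5 samples and stood at 3 in oxLDL sample 2. For Anxa1, Calr, Edil3 and Apoe the groups overlapped. The C1q chains, Thbs1 and C4b were picked after their values were seen. Receptors for find-me and do-not-eat-me signals had 3 of 11 tested members lower and 0 higher (median -0.77, with Lrp1 counted here too). Cd47, the do-not-eat-me protein, fell to 129 ± 10.2 CPM with oxLDL, against 274 ± 40.9 CPM in untreated cells (-1.08 ± 0.17, edgeR adjusted p = 0.0415). The nucleotide receptor P2ry6 fell by 1.89 and the fractalkine receptor Cx3cr1 fell by 1.81 on the log2 scale.

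Engulfment signalling, which links the receptors to Rac and actin, had 2 of 17 tested members lower and 0 higher (median -0.44), with 16 of 17 fitted values below 0. Elmo1, part of the ELMO-DOCK activator of Rac, fell by 0.87 and Dock2 fell by 0.999 on the log2 scale. Elmo1 counts were not whole in 6 samples. Fits that left out libraries gave -1.25 to -0.49 for Elmo1 (-0.49 without untreated sample 1 and the block) and -1.40 to -0.67 for Dock2 (-0.67 without oxLDL sample 3 and the block). Of 18 genes of LC3-associated phagocytosis and degradation none passed (median 0.000349). The most abundant, the protease Ctsd, measured 11565 ± 2924 CPM with oxLDL and 7543 ± 697 CPM without it (0.59 ± 0.29, edgeR adjusted p = 0.258).

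The sheddases that can release Mertk and Axl from the surface, with their inhibitors, had 0 of 7 past the threshold (median -0.31). Adam17, which cleaves Mertk, measured 267 ± 64.0 CPM with oxLDL and 361 ± 44.6 CPM in untreated cells (-0.46 ± 0.21, edgeR adjusted p = 0.230). Carboxylation of Gas6 and protein S depends on a vitamin K cycle, whose 5 listed genes had 1 higher and 0 lower (median 0.36). That gene was Nqo1, a quinone reductase better known as an antioxidant enzyme, at 26.0 ± 11.5 CPM with oxLDL and 2.25 ± 1.21 CPM without it (3.54 ± 0.43, edgeR adjusted p = 0.0316).

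Nuclear receptors and other factors that act on receptor genes had 1 of 11 lower and 0 higher (median 0.13). Nr1h3, the oxysterol receptor LXRα, which is known to induce Mertk in macrophages, measured 7.27, 7.68 and 14.0 CPM with oxLDL, against 12.2, 18.4 and 43.2 CPM without it (-1.23 ± 0.20, edgeR adjusted p = 0.0452). Without the block and untreated sample 3 the value was -0.67. In the interferon and SOCS arm, through which TAM receptors restrain inflammation, 2 of 8 fell and 0 rose (median -1.47). These were Stat2, at 85.7 ± 42.6 CPM with oxLDL and 433 ± 80.7 CPM without it, and Socs3, which fell by 1.95 on the log2 scale. In unblocked fits Socs3 nearly lost its difference once untreated sample 3 was left out (-0.046, edgeR adjusted p = 0.986), and it stood at -3.93 once oxLDL sample 3 was left out.

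The LDL receptor family and the Lrp1 chaperone had 1 of 12 tested genes higher and 0 lower (median 0.21). Lrp8, a receptor for reelin and apolipoprotein E, measured 26.6, 39.4 and 166 CPM with oxLDL, against 4.51, 2.28 and 44.9 CPM in untreated samples (2.73 ± 0.45, edgeR adjusted p = 0.0454). Each sample was above its partner, although untreated sample 3 exceeded oxLDL samples 1 and 2, and counts were not whole in 6 samples. Without the count filter its call was lost (edgeR adjusted p = 0.0629), and without the block its value was 0.92 without oxLDL sample 3 and 4.50 without untreated sample 3. Genes active after engulfment had 1 of 14 higher and 2 lower (median -0.10). The cytokine Il10 fell to 0.740, 0.134 and 0 CPM in oxLDL samples 1, 2 and 3, against 15.5, 10.1 and 1.23 CPM in untreated samples. Its expected counts were 11, 2 and 0 with oxLDL, against 227, 140 and 18 without it. The oxLDL levels thus lie near the floor, and the size of the difference is loosely set. Ptger4, a prostaglandin E receptor, fell by 2.39 and the cystine transporter Slc7a11, which restrains efferocytosis in dendritic cells, rose by 4.07 on the log2 scale. Without the block, Slc7a11 was at 2.34 without oxLDL sample 3 and at 5.59 without untreated sample 3. Its counts were not whole in 6 samples.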

How the data were processed

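Bulk poly(A) RNA was sequenced as stranded paired-end libraries, per the labels' protocols. The authors deposited expected counts per gene, made with RSEM 1.2.15 and Bowtie2 2.1.0 per the submitters' processing notes, and a normalised signal, which the file's name describes as TMM-normalised CPM. In that deposited signal 100% of values were whole multiples of 1 read (tolerance 0.005), and at least 99.9% equalled the rounded expected counts, so a count test on it repeats the test on the counts. The notes list the human build hg19 for these mouse samples, so no coordinates come from the files. The annotation and strand setting of the counting were not given in the sources used here. Antisense genes overlap Mertk and Lrp1 in GENCODE M21, and without the strand setting their reads cannot be told apart. Tmem255b overlaps Gas6 and had 0 counts in all 6 libraries. Counts were not whole for Axl in 1 sample, Tyro3 in 1 and Lrp1 in 2.

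Expected counts were rounded and tested with the quasi-likelihood test of edgeR 4.0.16 (TMM, filterByExpr with minimum count 10 and minimum total 15, robust estimation) in R 4.3.3, with the sample number as a block. Benjamini-Hochberg adjusted p-values over 11400 genes counted below 0.05. Each SE is the absolute log2 fold change over the root of F, and levels are CPM of the TMM-scaled library. Likeness used log2 CPM with a prior count of 2. The procedure was tested on simulated counts. Alternatives were limma 3.58.1 (voom), DESeq2 1.42.0, RLE scaling, no filter, no block and libraries left out. Samples were paired by number because the comparison was set that way. A further ground was that same-numbered samples deviated together from their group means. For pairs 1, 2 and 3 the r over genes was 0.66, 0.45 and 0.70. Unlike numbers gave 0.63 (oxLDL 1 with untreated 2), 0.20 and otherwise -0.76 to -0.37. By this measure oxLDL sample 1 was about as close to untreated sample 2 as to its partner. Deviations of 3 samples from their own mean sum to 0. A number 3 that stands apart in both groups thus raises the r among numbers 1 and 2 by itself. These values are therefore no independent ground for pairs 1 and 2. Nothing in the labels makes the samples separate animals or cultures. Blocked p-values measure only the spread of the differences within numbered pairs, which may be technical, and unblocked ones the spread within groups. Xist and Y-linked levels differed between the numbers, and what the numbers mark is not given. The members, the lists and the use of the block were chosen with earlier results of these data known, including the number of calls with and without the block. Named genes were all members and, of each list, up to 4 genes past the threshold, or the most abundant where none passed. An interferon-response promoter motif was also searched and is not reported. In bulk RNA, fewer cells of a type and less RNA per cell cannot be told apart.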

Additional observations from a re-analysis of the deposited data

How the results depend on the processing

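Alternatives moved the counts of calls more than the members' directions. Genes called higher and lower were 218 and 454 with the replicate block in edgeR, 0 and 0 without it, and 694 and 1162 in DESeq2 with the block. Leaving out libraries gave 0 to 1618 genes higher and 0 to 1828 lower, and 0 to 1 members higher and 0 to 3 lower. Members called higher and lower were 0 and 0 in edgeR, 1 and 2 in DESeq2 with the block, and 0 and 1 in limma-voom. In edgeR without the block, leaving out oxLDL sample 3 gave 4 genes higher and 27 lower, leaving out untreated sample 3 gave 294 and 443, and leaving out any other single library gave 0 and 0. Of the members, Gas6 changed sign, at -0.0413 without pair 1 and, with no block, -0.0024 without untreated sample 3; its leave-out values ran from -0.1253 to 0.99. The other 5 tested members kept their sign under all 15 alternatives. Leave-out values ran from -1.14 to -0.03 for Mertk, -1.22 to -0.54 for Axl, -1.90 to -0.60 for Pros1, -1.19 to -0.46 for Lrp1 and 0.67 to 1.81 for Mfge8. The cause was not tested. The CPM values the authors deposited differed from those given here by at most 1.06% over the members. With 2 pairs left, 1 residual degree of freedom remains per gene. Depth limits Tyro3, with 21.99 counts over all 6 libraries.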
